A study of Mus musculus with 6 samples.

Results

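In a chromatin state map of mouse hematopoietic stem cells (HSCs), 733 segments of state 9 lay directly against a segment of state 3, 4, 5 or 6. They were chosen by that contact, on chromosomes 1 to 19, and made up 733 of 3336 autosomal state 9 segments (22%). The whole map, including chromosomes beyond these 19, holds 850831 segments of all kinds. The 733 are called touching segments below, and the 2603 without such contact are called the other state 9 segments. The choice used the map itself, so the contact is a description and carries no test. The map divides the mm10 genome into 18 numbered states in bins of 200 bp. It belongs to a study of the histone variant H3.3 in HSCs from the bone marrow of adult C57BL/6 mice, either WT or HIRA KO, in which the H3.3 chaperone gene Hira was deleted in the blood system. ChIP of H3.3 was done on 2 biological replicates per genotype, with 1 input each. Poly(I:C), a mimic of viral RNA that induces interferon, was injected in 2 doses (20 ug) to start the deletion, and cells were taken on day 7. The labels attach this treatment to the WT libraries as well. The Cre driver and any pooling of mice were not stated.

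The map is tied to wild-type H3.3 by its name alone, as 1 segmentation with no replicate and no knockout counterpart, so no comparison of genotypes was made. It gives a state number and no count, so depth is unknown. States carry no names in the files. An SD below is taken across the 19 autosomes and says nothing of differences between animals. Intervals on shares are 95% Wilson intervals and cover counting error only. The map holds no expression values, and gene ends do not check the cell label. An end lay in states 3 to 6 for 27 of 34 genes on a list of HSC regulators and markers (79.4%), but also for 17 of 18 housekeeping genes (94.4%) and 10008 of all 20556 protein-coding genes (48.7%).

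H3.3 differs from the replicative H3 in being placed outside DNA replication, and HIRA is the chaperone for much of the H3.3 at promoters, enhancers and transcribed genes. A chromatin state map is made by a hidden Markov model, which gives each bin the state that best describes a combination of input signals, so a border between states marks a change in that combination. Most promoters of housekeeping and developmental genes lie in CpG islands, stretches where the dinucleotide CpG is kept at a high density. Developmental genes in such islands are commonly held by Polycomb complexes in cells where they are silent.

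The upstream sequences of 8 genes are shown because each of these genes had a start of transcription in state 9. Each run holds the 250 bases that end just before that start, is written 5′ to 3′ in the direction of transcription, and comes from RefSeq on GRCm38.p6, the assembly of mm10. Capitals mark CpG dinucleotides. Bmi1 and Hmga2 act in stem cells, Klf4 is a transcription factor gene, Ezh1 and Cbx8 encode Polycomb proteins and Col1a2 encodes a collagen chain of connective tissue. Fos, chosen after its values were seen, is an immediate early transcription factor gene with states 3 to 6 on both sides of its state 9 segment. Gfi1, a repressor gene of HSCs, is the comparison: its start lay in a state 9 segment that touched no state 3 to 6.
Bmi1 (chr2:18676768-18677017, plus strand): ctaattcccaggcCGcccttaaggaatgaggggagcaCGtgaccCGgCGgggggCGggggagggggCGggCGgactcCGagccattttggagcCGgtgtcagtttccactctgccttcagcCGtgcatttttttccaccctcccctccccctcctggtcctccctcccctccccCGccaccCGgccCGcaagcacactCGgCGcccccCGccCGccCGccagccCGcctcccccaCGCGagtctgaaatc
Hmga2 (chr10:120476470-120476719, minus strand): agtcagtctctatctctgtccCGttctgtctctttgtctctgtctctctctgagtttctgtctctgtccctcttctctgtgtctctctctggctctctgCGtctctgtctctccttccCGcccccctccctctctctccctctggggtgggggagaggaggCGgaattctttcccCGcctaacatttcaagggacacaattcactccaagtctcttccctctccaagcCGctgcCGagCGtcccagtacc
Klf4 (chr4:55532476-55532725, minus strand): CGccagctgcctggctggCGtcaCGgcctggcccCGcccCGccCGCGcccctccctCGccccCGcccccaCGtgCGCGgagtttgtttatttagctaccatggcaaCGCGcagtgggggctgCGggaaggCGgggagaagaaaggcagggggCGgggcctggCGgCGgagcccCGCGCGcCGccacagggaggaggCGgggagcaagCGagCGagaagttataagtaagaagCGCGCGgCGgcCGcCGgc
Ezh1 (chr11:101226464-101226713, minus strand): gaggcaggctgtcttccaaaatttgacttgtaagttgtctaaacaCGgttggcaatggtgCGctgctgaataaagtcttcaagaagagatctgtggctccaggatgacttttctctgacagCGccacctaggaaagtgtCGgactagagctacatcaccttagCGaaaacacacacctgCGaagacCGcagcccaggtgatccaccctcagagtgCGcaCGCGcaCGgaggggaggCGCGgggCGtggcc
Cbx8 (chr11:119040914-119041163, minus strand): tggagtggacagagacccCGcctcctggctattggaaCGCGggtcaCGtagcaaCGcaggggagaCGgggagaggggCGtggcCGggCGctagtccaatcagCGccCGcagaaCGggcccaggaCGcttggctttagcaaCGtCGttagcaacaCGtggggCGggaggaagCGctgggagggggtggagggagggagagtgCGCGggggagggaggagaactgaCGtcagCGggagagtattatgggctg
Col1a2 (chr6:4505368-4505617, plus strand): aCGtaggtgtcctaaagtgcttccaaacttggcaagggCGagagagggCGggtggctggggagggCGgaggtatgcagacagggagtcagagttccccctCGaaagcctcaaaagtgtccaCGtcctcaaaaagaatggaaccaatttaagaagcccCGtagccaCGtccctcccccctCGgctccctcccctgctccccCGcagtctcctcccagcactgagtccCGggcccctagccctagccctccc
Fos (chr12:85473640-85473889, plus strand): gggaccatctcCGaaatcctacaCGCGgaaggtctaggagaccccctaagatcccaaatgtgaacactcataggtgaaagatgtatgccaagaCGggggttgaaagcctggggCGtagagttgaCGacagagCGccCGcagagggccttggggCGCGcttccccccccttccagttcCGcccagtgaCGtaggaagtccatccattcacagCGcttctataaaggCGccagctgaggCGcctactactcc
Gfi1 (chr5:107725806-107726055, minus strand): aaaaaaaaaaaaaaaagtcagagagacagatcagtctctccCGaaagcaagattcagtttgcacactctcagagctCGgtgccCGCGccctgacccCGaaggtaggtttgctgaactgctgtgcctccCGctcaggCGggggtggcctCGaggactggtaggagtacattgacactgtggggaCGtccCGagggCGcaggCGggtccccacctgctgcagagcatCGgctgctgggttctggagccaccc
CpG was dense in most of these sequences. Klf4 held 32 CpG in the 250 bases shown, Cbx8 22, Bmi1 21, Fos 15, Ezh1 14, Gfi1 13 and Col1a2 11. Hmga2, with 8, held the fewest. Over the full window of 300 bases, from 250 before to 50 after the start, the ratio of observed to expected CpG was 0.974 at Klf4, 0.882 at Ezh1 and 0.833 at Cbx8, and 0.47 at Col1a2.

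State 9 was the usual point of contact between states 3 to 6 and the group of states 9, 10 and 11. Of 865 borders between the groups on the autosomes, 773 (89.4%, interval 87.1 to 91.2) ran through state 9, 39 through state 10 and 53 through state 11. Of 3336 state 9 segments 22% touched states 3 to 6, against 39 of 12225 state 10 segments (0.319%) and 53 of 110330 state 11 segments (0.048%). Seen from states 3 to 6 the contact was rare. Only 750 of 15431 unbroken runs of states 3 to 6 (4.86%) touched state 9 at either end, and 23 of these touched it at both ends.

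Contact was close to all or nothing. Among the other state 9 segments, a single one had states 3 to 6 exactly 1 bin away, behind a bin of state 1, and 13 had them within 1 kb. Just inside the rule, 275 of the 693 segments touched on 1 side met a segment of states 3 to 6 that was only 1 bin long. These 275 had a median length of 1 kb, and 98 of them (35.6%) held an end of a protein-coding gene, against 262 of all 733 (35.7%).

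The touching segments were spread over every autosome. They made up 21.8% ± 3.24 (SD, 19 autosomes) of state 9 segments per chromosome, from 15.6% to 29.2%, at 2.96 ± 0.837 per 10 Mb. Together they covered 0.923 Mb, or 0.0375% of autosomal bases. Their median length was 1 kb with quartiles of 0.6 and 1.6 kb, against 1.4 kb with quartiles of 1 and 1.8 kb in the other state 9 segments. The median was lower than that of the other segments on 18 of 19 autosomes. A single bin made up 82 touching segments (11.2%, interval 9.1 to 13.7), against 39 of 2603 others (1.5%, interval 1.1 to 2.04). The 90th percentile was 2.4 kb in both groups. A length of 3 kb was reached by 42 touching segments (5.73%, interval 4.27 to 7.65) and 97 others (3.73%, interval 3.06 to 4.52), and these intervals overlap.

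The 2 longest touching segments overlapped no protein-coding gene. At the first assembled bases of chromosome 9, 5 touching segments between 3000001 and 3038400 alternated with state 4, and they summed to 32 kb, including the longest of all at 16 kb (3015001 to 3031000). That stretch of mm10 is known to hold satellite repeats, whose copies attract reads from many places; its part in these calls was not tested. Without these 5, the longest was 5.2 kb, at the nuclear receptor gene Nr4a2.

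**Figure D1:**
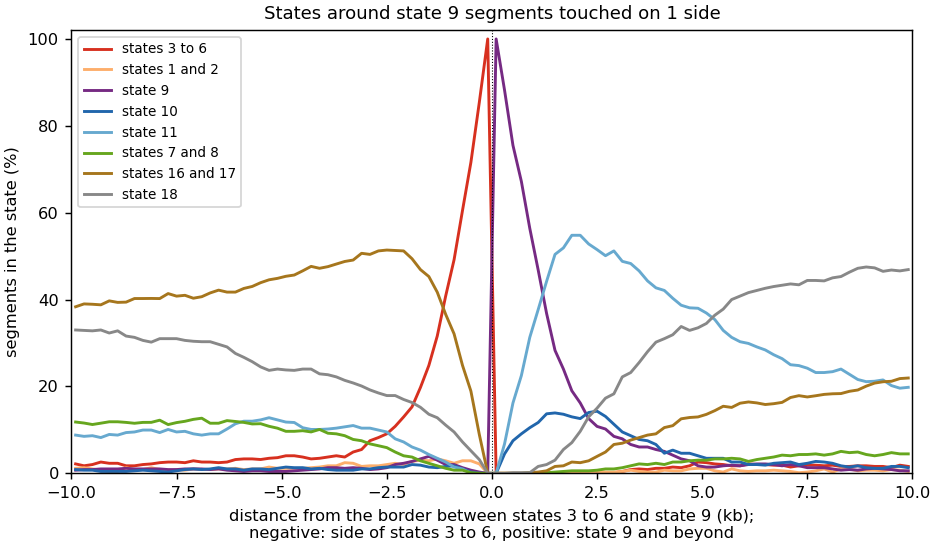
States by distance from the border between states 3 to 6 and state 9, for the 693 state 9 segments touched on 1 side; the x axis is distance in kb with the side of states 3 to 6 to the left, and each line is the percent of the 693 in a state or group of states per bin of 200 bp. State 11 and then state 18 take over to the right, and states 16 and 17 to the left.

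The states on the far side of state 9 differed from those beyond states 3 to 6, as the plot of states by distance shows. Of the 693 segments touched on 1 side, 402 (58%, interval 54.3 to 61.6) met state 11 on the far side and 243 (35.1%) met state 10. These 2 states are the usual neighbours of state 9 in general. Of the 5206 borders of the other state 9 segments, 70.4% were with state 11 and 25.1% with state 10. Beyond the run of states 3 to 6, the next state was 17 in 237 cases (34.2%), 16 in 205 (29.6%), 18 in 77 (11.1%), 2 in 55 (7.94%) and 1 in 51 (7.36%). State 9 followed there in 38 cases (5.48%), and state 10 or state 11 in 5 cases each. Beside the other runs of states 3 to 6, state 17 took 36.3% of borders and state 16 29.7%. State 18 took 7.2% there (interval 6.91 to 7.5, against 8.98 to 13.7 beyond the touched runs), state 1 took 11.1% (10.7 to 11.4, against 5.64 to 9.55) and state 8 took 3.33%, against 1.15%. At 5.9 kb from the shared border on the state 9 side, 40.8% of bins were in state 18 and 30.3% in state 11.

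The blocks on either side were short. The touched runs of states 3 to 6 had a median of 0.8 kb with quartiles of 0.4 and 1.4 kb, and the other runs 2 kb with quartiles of 1.2 and 2.6 kb. A single state made up 290 of the 750 touched runs (38.7%) and 2377 of 14681 other runs (16.2%). The unbroken run of states 9 to 11 that held a touching segment had a median of 3.8 kb, against 9.6 kb for the other state 9 segments. In 88 touching segments (12%) that run was the state 9 segment alone, against 50 of the others (1.92%). The contact rule sets part of this contrast. The 40 segments with states 3 to 6 on both sides are alone by definition, and the rest must lie at an end of their run.

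**Figure D2:**
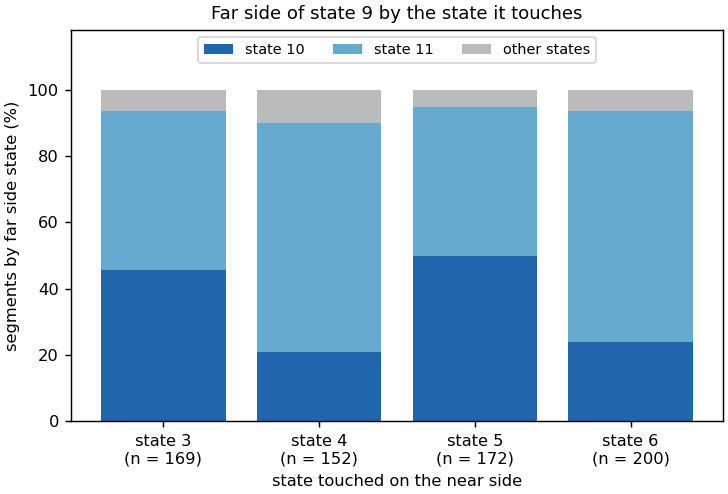
State on the far side of the 693 segments touched on 1 side, by the state touched on the near side; bars are percent of segments, stacked to 100, with n under each. The part in state 10 is 45.6% and 50% for states 3 and 5, and 21.1% and 24% for states 4 and 6.

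Which state was touched went with the state on the far side, as the bars of far side states show. The far side was state 10 in 163 of 341 segments that touched state 3 or 5 (47.8%, interval 42.6 to 53.1). It was state 10 in 80 of 352 that touched state 4 or 6 (22.7%, interval 18.7 to 27.4), and state 11 in 244 of them (69.3%). The share with state 10 was higher beside state 3 or 5 on 17 of 19 autosomes. Both sides come from the same segmentation, so the pattern is a description. States 3 and 4 made up 358 of the 773 touching borders (46.3%, interval 42.8 to 49.8) and 7270 of the 29362 outer borders of the other runs of states 3 to 6 (24.8%). Counted singly, state 6 gave 225 of the touching borders, while states 5, 3 and 4 gave 190, 186 and 172.

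Gene ends were less frequent in touching segments than in the other state 9 segments. Of 733 touching segments, 262 held an end of a protein-coding gene (35.7%, interval 32.4 to 39.3), against 1373 of 2603 others (52.7%, interval 50.8 to 54.7). The share was lower on 19 of 19 autosomes, at 35.2% ± 11.4 against 53.8% ± 4.86 (SD, 19 autosomes). With ends within 1 kb of a segment counted, the shares lay close together, at 63.3% against 63.7%. By length of sequence, touching segments held 30.8 protein-coding gene ends per 100 kb and the others 36.

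Start sites gave the same picture with the direction of transcription known. A RefSeq table of starts covers 16456 of the 20556 protein-coding genes and 18 of the 19 autosomes, with 707 of the touching segments on them. A start lay in 221 of these 707 (31.3%, interval 28 to 34.8) and in 1210 of 2524 others (47.9%, interval 46 to 49.9), and the share was lower on 18 of 18 autosomes. Within 1 kb the shares were 53% and 51.1%.

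**Figure D3:**
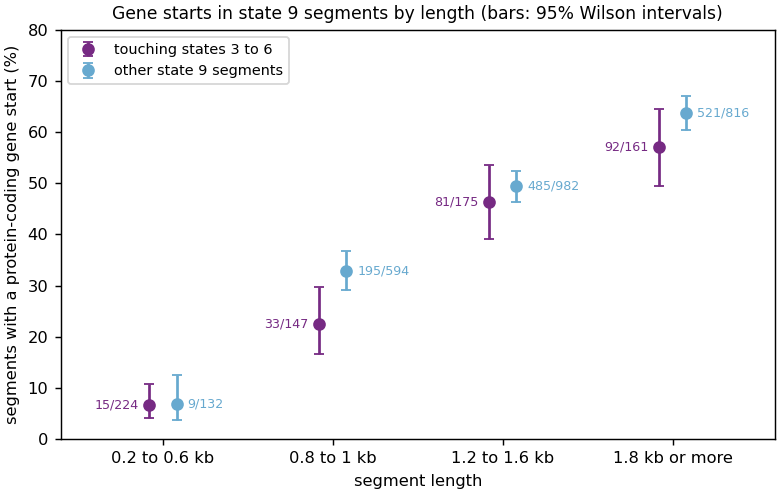
Percent of state 9 segments that hold a protein-coding gene start, by segment length (x axis, kb); points are shares of touching and other segments with counts beside them, and bars are 95% Wilson intervals. Shares run from 6.7% to 57.1% in touching segments and from 6.82% to 63.8% in the others.

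Length went with the share of segments that held a start, as the plot by length class shows. Among segments of 0.2 to 0.6 kb a start lay in 15 of 224 touching (6.7%) and 9 of 132 other segments (6.82%). At 0.8 to 1 kb the shares were 22.4% and 32.8%, with intervals of 16.5 to 29.8 and 29.2 to 36.7. At 1.2 to 1.6 kb they were 46.3% and 49.4%, and at 1.8 kb or more 57.1% and 63.8%. The touching share was the lower one in each class, with overlapping intervals in every class.

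The 707 segments fell into classes by whether a start lay in the segment or in the touched run. Starts close by but outside both places were not counted. A protein-coding start was in the segment only in 203 (28.7%), in the touched run of states 3 to 6 only in 194 (27.4%), and in both in 18 (2.55%). A further 25 (3.54%) had only a long noncoding RNA start in either place. Neither place held a start for 176 inside a protein-coding gene record (24.9%) and for 91 outside such records (12.9%). Genes without a start record, such as Egr3, Hoxb2, Id1 and Gli1, can fall in these last classes. Segments that held the start themselves had a median of 1.6 kb, and those whose start lay in the touched run had a median of 0.6 kb. A start lay in the touched run for 42.9% of segments beside state 4 (interval 35.1 to 50.9) and 36% beside state 3 (29 to 43.7). The shares were 24% beside state 6 (18.5 to 30.5) and 22% beside state 5 (16.4 to 28.9), and the intervals of states 3 and 6 overlap.

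The touched runs themselves held a start in 202 of 723 cases (27.9%, interval 24.8 to 31.3), against 7865 of 14274 other runs of states 3 to 6 (55.1%). Length went with this share too. Among runs over 1 kb it was 161 of 281 touched runs (57.3%, interval 51.5 to 62.9) and 68.4% of the others. Among runs of 0.6 to 1 kb it was 36 of 230 (15.7%, interval 11.5 to 20.9) and 9.47%.

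**Figure D4:**
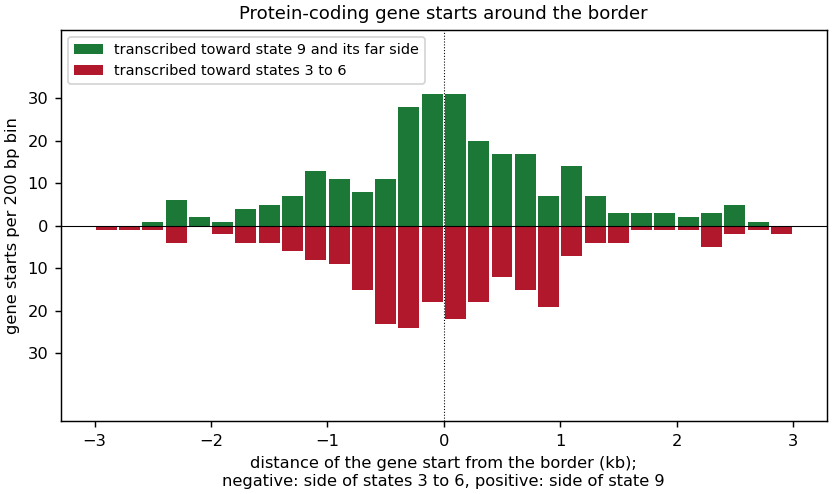
Protein-coding gene starts per bin of 200 bp by distance from the shared border (x axis, kb; states 3 to 6 to the left, state 9 to the right), for segments touched on 1 side; bars above 0 are starts transcribed toward state 9 and its far side, bars below 0 those transcribed the other way. Above 0 the highest bars, 31 starts each, are the bins on either side of the border. Below 0 the highest, 24 starts, is centred 0.3 kb from the border on the side of states 3 to 6.

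Starts gathered near the border and pointed both ways. In the plot of starts by distance, those transcribed toward state 9 and its far side were highest in the bins on either side of the border, at 31 each. Those transcribed toward states 3 to 6 numbered 18 and 22 in these bins. They were highest, at 24, in the bin centred 0.3 kb from the border on the side of states 3 to 6. Of the 204 segments with a start in the touched run, transcription ran toward state 9 in 109 (53.4%, interval 46.6 to 60.1), away from it in 85 and both ways in 10. Of the 202 with a start in the segment, it ran away from states 3 to 6 in 100 (49.5%), toward them in 93 and both ways in 9. Neither count favours one direction beyond its counting interval.

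A few borders fell between divergent genes. In 3 of the segments, a gene started in state 9 and a second started in states 3 to 6 in the opposite direction. Hspa1a, a stress-induced chaperone gene, started in state 9 (chromosome 17, 34971801 to 34972200) 547 bp from the start of its neighbour Hspa1l in a run that touched through state 4. Hspa1a has a near-identical neighbouring copy, Hspa1b, so reads may be split between them. Stag3, which encodes a meiotic cohesin subunit, paired with Gpc2 at 572 bp, and Fbxo2 with Fbxo44, both F-box genes, at 1079 bp.

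Starts in touching segments lay in CpG-rich sequence, as did those of state 9 in general. The median ratio of observed to expected CpG over 300 bases was 0.761 (quartiles 0.601 and 0.903) at 250 starts in touching segments and 0.753 (0.599 and 0.884) at 1379 starts in other state 9 segments. It was 0.801 at 240 starts in the touched runs, 0.793 at 10037 starts in other runs of states 3 to 6 and 0.203 at 8178 starts in other states. The ratio reached 0.6 at 75.2% of starts in touching segments and at 48.9% of all 20084 starts. The median G+C content was 64% in touching segments, 66.3% in other state 9 segments and 62% in other runs of states 3 to 6.

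Short motifs were searched on both strands of the same windows, and none of those searched contains another. The GC box GGGCGG was in 73.6% of the 250 windows, 73.7% of those in other state 9 segments and 47% of all windows. The ETS core CCGGAAG, a site type for ETS factors, was in 29 (11.6%), against 5.08% in other state 9 segments and 11.9% of all windows. In the touched runs it was in 45 of 240 windows (18.8%), and in other runs of states 3 to 6 in 20.3%. The octamer ATGCAAAT was in 10 (4%), against 1.09% in other state 9 segments and 1.67% of all windows. The cyclic AMP element TGACGTCA was in 11 (4.4%), against 2.61% and 2.3%, and Cbx8 was among its carriers. TATAAA was in 6.4%, against 6.96% and 12.7%, and Fos was among its carriers. CCAAT was in 32.8%, CACGTG in 10.8%, AGATAA in 5.6%, TGTGGT in 7.6% and the NRF1 motif in 0.4%. Windows in other state 9 segments gave 29.9%, 7.54%, 3.92%, 7.4% and 0.508% for these motifs. All windows gave 38.1%, 7.89%, 9.57%, 14.8% and 1.34%. These are matches of letters in a window and not binding.

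Of the 20556 protein-coding genes on the autosomes, 277 had an end in a touching segment (1.35%) and 1414 in another state 9 segment (6.88%). For genes with a start record, the start lay in a touching segment for 230 of 16456 (1.4%) and in a touched run of states 3 to 6 for 213 (1.29%). Gene lists were counted beside these shares, without a test.

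Polycomb and Trithorax genes had 3 of 14 members with an end in a touching segment (21.4%) and 0 of 14 in another state 9 segment. Ezh1, a histone H3 methyltransferase gene of Polycomb repressive complex 2, started in a segment of 0.8 kb that touched state 4 (chromosome 11, 101226401 to 101227200), with state 10 on the far side. Cbx2 and Cbx8, neighbouring genes for chromobox proteins, had an end in segments of 1 and 1.2 kb, which touched states 3 and 4 and had state 10 on the far side. For Ezh2 and Suz12, core subunits of the same complex chosen here after their values were seen, the start lay in the touched run and the segment followed inside the gene. The runs were 2.4 and 2 kb long and the segments 1 kb each.

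Of the HSC list, 2 of 34 had an end in a touching segment (5.88%) and 3 in another state 9 segment (8.82%). Bmi1, a Polycomb gene needed for HSC self-renewal (chromosome 2, 18677018 to 18686629), held 2 touching segments. The first, of 2.2 kb, began 0.417 kb upstream of the start and touched state 6, and the second, of 0.4 kb, touched state 3, with state 10 between them. Hmga2, an architectural factor gene of fetal HSCs, started in a segment of 4.2 kb that touched a state 5 run of 0.4 kb on the gene body side. Mecom, an HSC transcription factor gene chosen after its values were seen, had a start in a touched run of 3.4 kb beside a segment of 2.6 kb.

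Of 54 developmental transcription factor genes, 23 had an end in a state 9 segment that touched no state 3 to 6 (42.6%), against 6.88% of all genes. In a touching segment the count was 0 of 54, and with 1.35% of all genes there a list of this size cannot show a lower share. Of 38 Hox genes, 1 had an end in a touching segment and 10 in another (26.3%). The 1 was Hoxb2, whose whole record (100%) lay in a segment of 4 kb between a state 5 run of 0.2 kb and state 17 (chromosome 11, 96351401 to 96355400). Neuronal genes gave 0 of 22 and 7 of 22 (31.8%), and lymphoid genes 0 of 23 and 7 of 23 (30.4%). Lists this short cannot show a lower share in touching segments either, and they hold only some genes of each kind.

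Signalling genes had 2 of 40 with an end in a touching segment (5%) and 16 in another state 9 segment (40%). Gli1, a transcription factor gene of the Hedgehog pathway, had states 4 and 6 on either side of its segment of 3.4 kb. The record of Id1, an inhibitor of helix-loop-helix factors, lay wholly in a segment of 2.8 kb between states 3 and 10. In 4 more genes of the list, Fzd1, Fzd7, Ptch1 and Smad6, a start lay in a touched run. That is 4 of 27 with a start record, beside 1.29% of all genes with one. In the lymphoid list it was 2 of 20, Gata3 and Id2. In the growth factor and cytokine receptor list it was 2 of 19, Kdr and Efnb2. Of growth factor and cytokine receptor genes, 1 of 23 had an end in a touching segment, Fgfr1, and 7 in another. Of marrow stroma and endothelium genes, it was 1 of 15, Col1a2, against 2 of 15. Of myeloid genes it was 1 of 14, Klf4, against 2 of 14.

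No end in either kind of state 9 segment was found for 13 erythroid and megakaryocyte, 18 housekeeping, 18 interferon response or 11 H3.3 and chaperone genes. With 1.35% of all genes in touching segments and 6.88% in the others, lists of this size cannot show a lower share. Of 15 cell cycle inhibitor and p53 pathway genes, 0 had an end in a touching segment and 3 in another. Cdkn2c, an inhibitor of CDK4 and CDK6, had starts both in a touching segment of 1.8 kb and in its touched run of 2 kb, but no record end in the segment. It was chosen after its values were seen.

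States 3 to 6 lay on both sides of 40 touching segments (5.46%), which had a median of 1.8 kb against 1 kb for those touched on 1 side. In 21 of the 40 (52.5%, interval 37.5 to 67.1) both sides were within states 3 and 5 or within states 4 and 6. These include 3 segments with state 4 on both sides, all at the first assembled bases of chromosome 9 described above. Of all touching borders, 48.6% were in state 3 or 5 and 51.4% in state 4 or 6, so the count shows no preference for matched sides. The 4 longest with a gene end held Irf2bpl, Klf4, Gli1 and Fos, of which 3 had a start record.

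**Figure D5:**
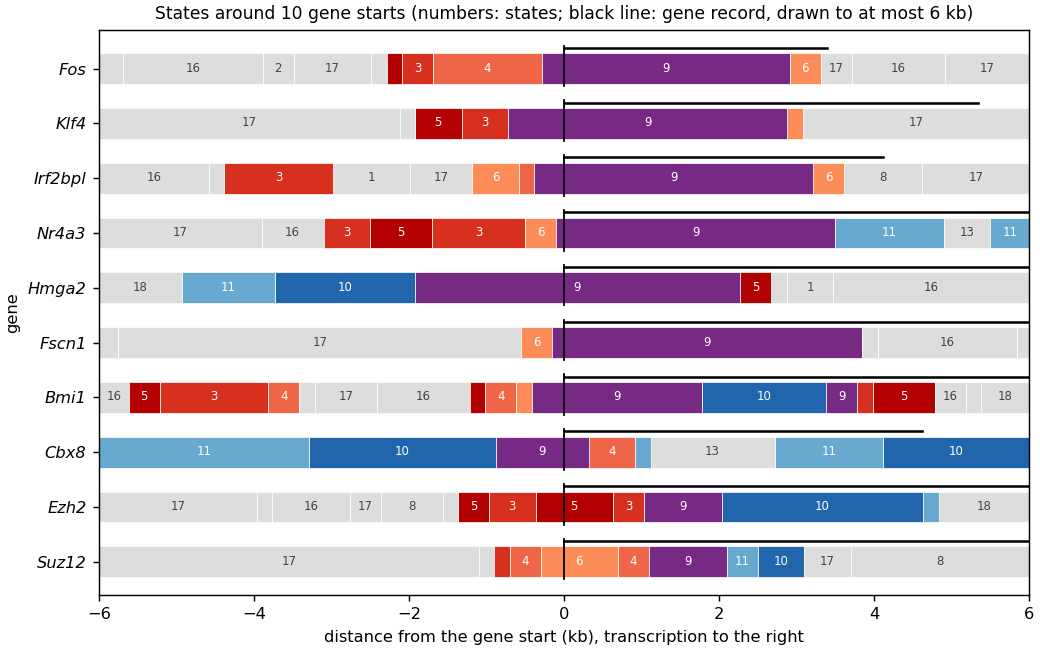
States within 6 kb of the start of 10 genes, with transcription to the right; the x axis is distance from the start in kb, each row is a gene, numbers and colours give the state, and the black line is the gene record. State 9 (purple) spans 0.289 kb before to 2.91 kb after the start of Fos and lies downstream of the start in Ezh2 and Suz12.

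At these 3 genes state 9 began just upstream of the start and covered over 50% of a short gene record, as the maps of 10 gene starts show. At Fos (chromosome 12, 85473890 to 85477274) the segment spanned 85473601 to 85476800, from 0.289 kb upstream to 2.91 kb downstream of the start, and covered 86% of the record. A run of states 3 to 6 of 2 kb lay upstream, touching through state 4, and a state 6 segment of 0.4 kb lay downstream. At Klf4 (chromosome 4, 55527137 to 55532475) a segment of 3.6 kb ran from 0.725 kb upstream to 2.88 kb downstream and covered 53.8% of the record. Its upstream run was 1.2 kb, touching through state 3, and its downstream neighbour was a single bin of state 6. At Irf2bpl, an intronless gene for an IRF2-binding protein relative, a segment of 3.6 kb covered 78.2% of the record, with runs of 0.8 kb upstream and 0.4 kb downstream. At Cdkn1a, the gene of the cell cycle inhibitor p21, chosen after its values were seen, a segment of 2 kb held the start, with states 5 and 4 on its sides.

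Several genes known for rapid induction by stimuli stood beside Fos and Klf4. A list of 30 immediate early genes was written after these values were seen. Its counts are partly set by that choice, so they are not independent evidence and no excess is read from them. Of the 30, 10 had a record overlapping a touching segment (33.3%), beside 604 of all 20556 protein-coding genes (2.94%). Overlap with other state 9 segments was found for 2 of the 30 (6.67%), Egr4 and Atf3, against 2059 of all genes (10%). The 10 were Fos, Fosb, Egr2, Egr3, Ier5l, Nr4a2, Nr4a3, Klf2, Klf4 and Arc. Their longest touching segments measured 5.2 kb at Nr4a2, 4.8 kb at Egr3, 4.6 kb at Fosb, 3.6 kb at Klf4 and Nr4a3, 3.2 kb at Fos, 2.2 kb at Klf2, 1.4 kb at Arc and 1.2 kb at Egr2 and Ier5l. Fos, Egr3, Ier5l, Klf2, Klf4 and Arc also had a record end in the segment (6 of 30, 20%, against 1.35% of all genes). The other 18 of the list, among them Jun, Junb, Egr1, Nr4a1, Dusp1, Myc and Zfp36, overlapped no state 9 segment, and 17 of them (94.4%) had an end in states 3 to 6. That share was 48.7% of all protein-coding genes and the same 94.4% of the housekeeping list.

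The members of this group differed in where the start lay. At Klf2, a transcription factor gene of quiescent T cells, the segment began 0.061 kb upstream of the start and covered 82.5% of the record, with state 3 upstream and state 11 downstream. At Nr4a3, a nuclear receptor gene, it began 0.104 kb upstream and reached 3.5 kb downstream, beside a run of 3 kb upstream. At Fosb the start lay in a touched run of 2.4 kb and the segment of 4.6 kb covered 62% of the record. At Egr2 a run of 1.4 kb of states 3 to 6 was touched on both sides by segments of 1.2 and 0.8 kb, each holding a start.

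The longest touching segments with a gene end were at Egr3 (4.8 kb), Hmga2 (4.2 kb), and Hoxb2, Zswim6, Mn1 and Fscn1 (4 kb each). Fscn1, an actin-bundling protein gene (chromosome 5, 142960355 to 142973189), had its start 0.154 kb inside a segment that covered 30% of the record, beside a state 6 run of 0.4 kb. Kif26b, Socs2, Samd4 and the pair Acoxl and Bcl2l11 followed at 3.8 kb, and Irf2bpl, Mpped2, Klf4 and Epha7, an ephrin receptor gene, at 3.6 kb. Epha7 is named for its tied length, after its values were seen. Socs2 encodes a feedback inhibitor of cytokine signalling and Bcl2l11 the death factor Bim. The segment at Bcl2l11 held both a start of that gene and the record end of Acoxl, and touched state 4. In large genes such segments were a small part: 0.514% of the Kif26b record and 1.61% of that of Zswim6.

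The records overlapping most touching segments were Gm37013, Gm38666 and Gm38667 on chromosome 18, with 3 each. These records overlap one another and share the same 3 segments, of 1.4, 1.2 and 0.4 kb. They were followed by genes with 2 each, in alphabetical order first Ank1, the ankyrin gene of red cells, and Bahd1, a heterochromatin protein gene. At Bahd1 a start lay in a touched run of 0.8 kb with a touching segment on either side, of 1.2 and 1.8 kb.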

How the data were processed

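Chromatin of sorted HSCs was cut with micrococcal nuclease and H3.3 was precipitated with a rat monoclonal antibody, per the labels' protocols. Bowtie2, MACS2, HOMER, deepTools and mm10 appear in the submitters' processing notes without versions. The deposited files hold a state number per segment, in dense and expanded form, with states ordered by emission, per the file headers. ChromHMM is named only in a file name, and the tracks in the model were not given in the sources used here. Depth is unknown.

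Segments were read with Python 3.11.15, pandas 2.3.3, numpy 2.4.6 and scipy 1.17.1, and plotted with matplotlib 3.10.9. The functions were tested on simulated data. Genes and windows came from RefSeq tables of GRCm38.p6. Of the protein-coding genes, 105 starting within the first 3 Mb were left out, and 20556 were used. Start sites and sequences on chromosome 18 were not analysed here. Coordinates are 1-based. Of 362 entries in 15 gene lists, 10 matched no autosomal protein-coding gene.

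The segments and lists were chosen with earlier results of these data known, so no list was tested. Named genes were those with an end in the 12 longest touching segments holding one, up to 4 per list, the 5 overlapping most segments, and those of the 4 longest with states 3 to 6 on both sides. Others were chosen after their values were seen. Promoters followed the same order. Alternatives changed the file, the contact, the shortest segments, the chromosomes and the gene records.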

Additional observations from a re-analysis of the deposited data

How the results depend on the processing

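Over 10 other settings, 88 of 99 values stayed within their 95% interval or within 1.5 times the count. The expanded file, contact allowed over 1 bin or 1 kb, chromosome X and, added after the data were seen, leaving out the first 100 kb of chromosome 9 changed none beyond that. With neighbours of at least 2 bins, 455 segments touched states 3 to 6, 3.52% of them on both sides, and 173 genes had an end in one, since fewer contacts count. Without segments of 1 bin, 39.8% of touching segments held a gene end. With all annotated genes the share was 40.1%, and 59.4% in other state 9 segments. With ends within 1 kb it was 63.3% and 63.7%, and 513 genes were counted. With starts within 1 kb it was 53% and 51.1%. The cause was not tested. No paired analysis was possible because the map is a single segmentation with no column per library. With no depth in the files, how firmly each bin was called is unknown.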

Other observations

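Among smaller transcripts, the hairpins of 4 named microRNA genes, Mir203, Mir688, Mir1900 and Mir8092, had their lower coordinate in a touching segment. Mir203 lay on chromosome 12 (112130880 to 112130955, plus strand), and a second record on the opposite strand, Gm51289, overlapped it. Mir203 is best known from skin, where it restrains the growth of keratinocytes.

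Other genes, chosen after their values were seen, were of further kinds. Nfil3, a factor gene for innate lymphoid and NK cell development, had a start in a segment of 4.4 kb that touched state 3. Slit2, an axon guidance gene, had one in a segment of 4.6 kb beside a state 5 run of 0.4 kb. Bcl6, a germinal centre repressor gene, had starts both in a segment of 1 kb and in its touched run of 8.4 kb. Gata3, a T cell factor gene, had a start in a touched run of 4.2 kb, and the state 9 segment beside it, of 0.8 kb, opened a run of states 9 to 11 of 22.4 kb. Kitl, the stem cell factor gene, had a start in a touched run of 1 kb beside a segment of 0.8 kb. Snrpn, an imprinted gene, had a start in a segment of 0.6 kb that touched state 6. Rara, the retinoic acid receptor alpha gene, held a segment of 4.4 kb with state 3 on one side and state 16 on the other.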
